A study of Mus musculus with 12 samples.

Results

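The proteasome genes described here are the mouse genes whose symbol reads Psma, Psmb, Psmc, Psmd, Psme, Psmf or Psmg followed by a digit, with pseudogene names left out. Of 14078 genes with at least 1 peak of N6-methyladenosine (m6A) in either of 2 deposited peak lists, 47 carry such a name. The Mettl3 KO list comes from BV2 cells, an immortalised mouse microglial line, in which Mettl3 had been knocked out, and the WT list from BV2 cells with Mettl3 intact. Both cell populations were treated with LPS, so there is no untreated group. Each list rests on methylated RNA immunoprecipitation followed by sequencing, with 3 antibody pull-down (IP) and 3 input libraries per genotype, 12 libraries in all. The labels do not give the dose and duration of LPS, the part of Mettl3 removed or the number of KO clones.

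The proteasome is the large protease that degrades ubiquitin-tagged proteins. Its core is a stack of rings, the outer ones built from alpha subunits (Psma genes), which gate the channel, and the inner ones from beta subunits (Psmb genes), some of which carry the cutting sites. The regulatory particle on top of the core recognises ubiquitin, removes it, unfolds the substrate with a ring of ATPases (Psmc genes) and holds scaffold subunits and ubiquitin receptors (Psmd genes). In cells that meet interferon or inflammatory signals, and in immune cells such as microglia, the inducible subunits Psmb8, Psmb9 and Psmb10 replace the constitutive catalytic ones and form the immunoproteasome, which favours peptides for antigen presentation. METTL3 is the catalytic subunit of the complex that methylates adenosines of messenger RNA, and the resulting m6A mark influences the stability, splicing and translation of a transcript.

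The enrichment of a peak is the log2 ratio of IP to input, and both it and the adjusted p given with it were deposited by the authors. A value of 1 on this scale is a 2-fold enrichment. The value of a gene is that of its strongest peak in a list, and a difference is KO minus WT. There is 1 list per genotype, so no spread between replicates could be measured, no difference between genotypes was tested, and the depth of the libraries is unknown here. The IP efficiency and scaling of each list are also unknown, so for the main comparisons the same quantities over all genes are given beside those of the proteasome genes. Of 13 microglial and macrophage marker genes, 11 had a peak in the KO list and 11 in the WT list. Of 13 genes typical of neuroblastoma cells, which the extraction protocol mentions, 2 had a peak in the KO list and 2 in the WT list. Mettl3 itself had 6 peaks in the KO list and 3 in the WT list, which is no check of the knockout, since a peak shows only that some transcript was captured.

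The series names the m6A consensus motif RRACH, which stands for AC preceded by a pair of purines (each A or G) and followed by any base except G. The sequences held here cover only the first transcribed bases of a gene (RefSeq, build GRCm38.p6), so the motif was searched in the first 50 transcribed bases, on the transcribed strand. Of the 47 genes 40 were matched, with 43 start windows. The motif was present in 16 of these 43 windows (37.2%) and in 44.6% of all 32851 start windows. On the opposite strand the shares were 48.8% and 44.9%, so the transcribed strand of these windows held no more matches than the other. The following stretches of 30 bases are shown because they hold every motif match that lies inside a deposited peak of its gene, with each match in capitals. The matches of the ATPase gene Psmc2 and the inhibitor gene Psmf1 were covered in both lists, those of Psmd14 and Psmd5 in the KO list, and those of Psmg3, Psmc6 and Psmc1 in the WT list.
Psmc2, chr5:21786747-21786776, plus strand: AGACAccagcggaagcgggaaaggtgctgt
Psmf1, chr2:151741261-151741290, minus strand: tccacttttccgcgcaggtgcGGACAgagc
Psmd14, chr2:61711714-61711743, plus strand: gaaaggaagccgaaggaagccggGAACCcg
Psmd5, chr2:34870933-34870962, minus strand: ggGAACCtagtaggtgggcgggcagacggg
Psmg3, chr5:139826857-139826886, minus strand: aagttctcgccgGGACTtctgctAAACCat
Psmc6, chr14:45329841-45329870, plus strand: tctcatcatggcGGACCctagagataaggc
Psmc1, chr12:100110222-100110251, plus strand: aagggtttcggctggtcgtctcAAACAtcc

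The enrichment of the peaks over these matches ran from 0.44 to 1.55. The Psmc2 peak in the 5′ UTR stood at 0.89 in the KO list and 0.73 in the WT list, and the Psmf1 peak at 0.44 in the KO list and 0.81 in the WT list. The KO-list peaks reached 1.08 over the Psmd14 site and 0.51 over the Psmd5 site. The WT-list peaks reached 1.55 over the Psmg3 matches, 0.89 over the Psmc6 site and 0.55 over the Psmc1 site, the last in a peak annotated as coding exon. These values belong to whole peaks and not to the printed sites. The Psmc2 peak spans 7618 bases in the KO list and 7593 in the WT list. The Psmf1 peak spans 2842 bases in the KO list and 2817 in the WT list, and the WT Psmc1 peak 5215. Among the 12 start windows that lay wholly inside a peak of both lists, only those of Psmc2 and Psmf1 held the motif (16.7%). No share over all genes is given for such windows. Among genes with strong 5′ UTR peaks in both lists, the windows of Psme4 and Psmd1 held no match, which says only that these letters are not there, and that of Psmg3 held 3.

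All 47 genes had a peak in the KO list and all 47 in the WT list. Over all genes, 5.03% had a peak in the KO list only and 7.44% in the WT list only. The standard proteasome genes without a peak in either list were Psma8, an alpha subunit of the testis, Psmb11, the catalytic subunit of the thymus, and the assembly chaperone gene Psmg4. Of the 47, 45 are standard subunit, regulator or assembly genes. Psmc3ip, which encodes a meiotic recombination factor, and Psme2b, a retrogene copy of Psme2, match by name and are described apart. The pathway labels in the deposited lists assign 40 of the 47 to the KEGG proteasome pathway. All 47 overlapped the position of their symbol in the RefSeq table of GRCm38.p6.

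The proteasome genes carried more peaks in the KO list than in the WT list, 128 against 106, a ratio of 1.21 beside 1.12 over all genes (41153 against 36682). Per gene this was 2.72 peaks in the KO list and 2.26 in the WT list, and over all genes with a peak 3.15 in the KO list and 2.74 in the WT list. More peaks were listed in KO for 20 genes and in WT for 9, and the number was equal for 18. No such split over all genes is given, and the KO list is the longer one over all genes too. These counts therefore mark no trait particular to proteasome genes. Psmd1, the large scaffold subunit of the regulatory particle, had most in the KO list, 7. Psmc6, an ATPase gene, had most in the WT list, 6. The median peak stood at 0.69 in the KO list and 0.74 in the WT list, against 0.70 and 0.83 over all peaks of the KO and the WT list. Among the proteasome peaks, the deposited adjusted p had a median of 2.51e-22 in the KO list and 2.07e-32 in the WT list. Over all peaks the medians were 7.72e-08 in the KO list and 1.075e-09 in the WT list. The adjusted p was above 0.05 for 1 KO proteasome peak, an intronic peak of Psmd3 (adjusted p = 0.0526), and for none in the WT list.

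Proteasome transcripts were moderately enriched by the antibody in both genotypes. Their strongest peaks had a median log2 of 0.99 in the KO list and 0.92 in the WT list, while the medians over all genes were 1.08 in the KO list and 1.34 in the WT list. An enrichment of at least 2-fold was reached by 21 genes (44.7%) in the KO list and by 19 (40.4%) in the WT list, against 57.2% and 69.9% of all genes in the KO and WT lists. The values ran from 0.64 to 3.25 in the KO list and from 0.48 to 3.22 in the WT list. Psme4, which encodes a large nuclear activator of the core particle, was the gene at the top of both lists and the one above 4-fold. The next 4 in the KO list were Psmg3 (1.50), Psmd1 (1.50), Psmb1 (1.49) and Psma3 (1.41). In the WT list they were Psmd1 (1.94), Psmb9 (1.67), Psmg3 (1.55) and Psma3 (1.48).

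**Figure D1:**
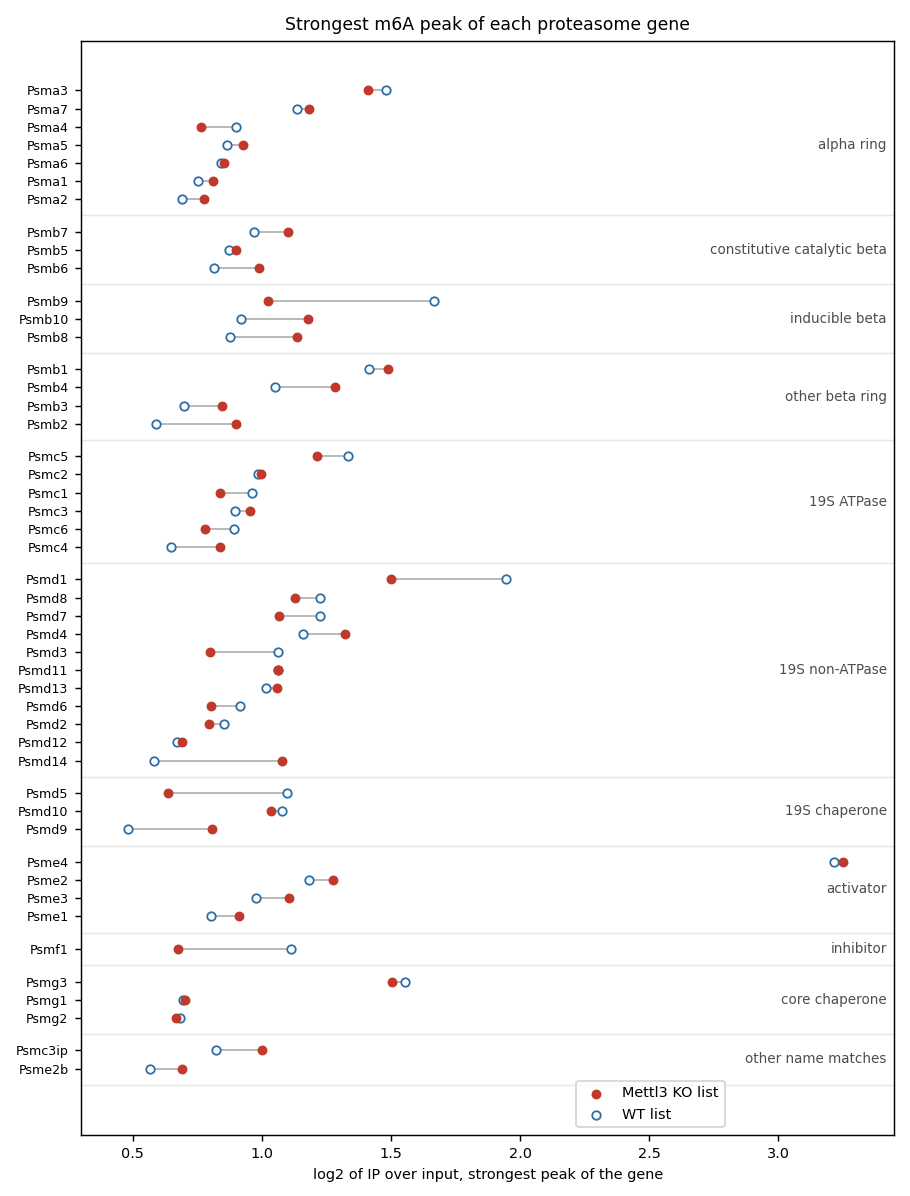
Deposited enrichment (log2 of IP over input) for the strongest peak of each of the 47 proteasome genes, grouped by role, with the Mettl3 KO list as filled and the WT list as open circles (1 value per list, no replicates). Most pairs lie close together between 0.5 and 1.5, Psme4 stands alone above 3, and the widest gap is that of Psmb9.

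For most proteasome transcripts the enrichment in the KO list lay close to that in the WT list. The KO value was higher for 29 genes and lower for 18, with a median difference of 0.033 (95% interval of the median -0.015 to 0.085, over genes) and an interquartile range of -0.085 to 0.13. That interval treats the genes as independent, though they share the same libraries. It holds no spread between replicates and no uncertainty in the scaling of the lists. Over all 12323 genes with a peak in both lists the KO value was higher for 26.6%, and the median difference was -0.25 (interquartile range -0.64 to 0.015). The comparison was repeated, after the values had been seen, for genes whose mean of both values lay between 0.5 and 1.5. There the KO value was higher for 28 of 44 proteasome genes and for 34.4% of all such genes, whose median difference was -0.11. Of the 47 differences, 37 were smaller than 0.25 and 21 smaller than 0.1 in either direction. Across all genes in both lists, 49.7% lost at least 0.25 in the KO list and 7.88% gained at least that much. For the limit of 0.1 no share of all genes is given, so the count of 21 has no background beside it.

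At 0.25 or more, 5 genes were lower in the KO list, where the share over all genes was 49.7%, and 5 were higher, where the share over all genes was 7.88%. The lower ones were Psmb9 (-0.65), Psmd5 (-0.46), Psmd1 (-0.45), Psmf1 (-0.44) and Psmd3 (-0.26). The higher ones were Psmd14 (0.49), Psmd9 (0.32), Psmb2 (0.31), Psmb8 (0.26) and Psmb10 (0.26). At 0.5 or more only Psmb9 was lower, against 33.5% of all genes, and 0 genes were higher, against 2.91% of all genes. None reached a difference of 1. Across the 47 genes the KO and WT values had a Spearman correlation of 0.65, beside 0.76 across all genes, given as a description of lists made with the same assay.

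**Figure D2:**
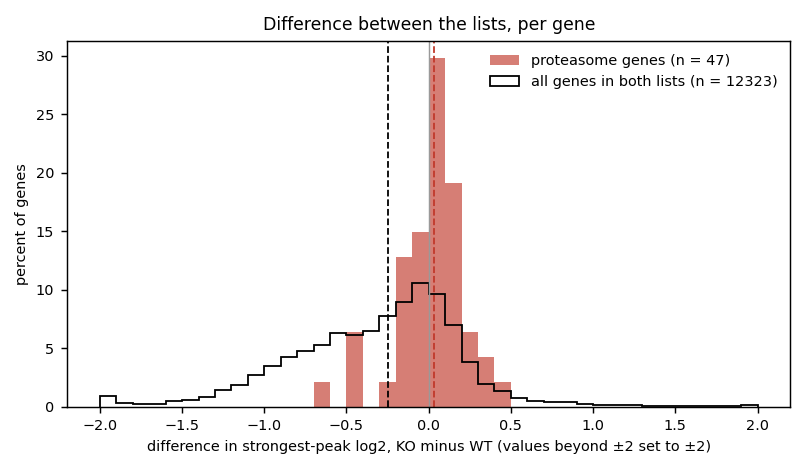
Distribution of the KO minus WT difference in strongest-peak log2, in bins of 0.1, for the 47 proteasome genes (filled) and for all 12323 genes with a peak in both lists (outline), as a percent of genes. Dashed lines mark the medians, 0.033 for the proteasome genes and -0.25 for all genes, whose distribution has a long arm towards lower KO values.

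The direction of the small differences depended on how a gene's peaks were combined. With the mean over all peaks of a gene in place of the strongest, 18 genes were higher in the KO list and 29 lower, with a median difference of -0.064. Over all genes 22.8% were then higher, and the median was -0.17. The order of the 2 lists turned round for 13 of the 47 genes. With peaks of at most 1000 bases, 36 genes could be compared and 5 turned round (Psma3, Psmb10, Psmc3, Psmd2 and Psme3). For Psmb10 and Psme3 the compared peaks then lay at different ends of the gene. Of the 36, 20 were higher and 16 lower in the KO list, with a median difference of 0.023. Over all genes 41.8% were then higher, with a median of -0.054, so the gap from all genes was narrower than with peaks of any span.

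The alpha ring genes had peaks of similar strength in both lists. Of 7 with a peak 5 were higher and 2 lower in the KO list, with differences between -0.14 and 0.085. Over all genes 26.6% were higher. Psma3 was the strongest, with 1.41 in the KO list and 1.48 in the WT list, on a 3′ UTR peak with an adjusted p listed as 0 in both. Psma7 followed with 1.18 in the KO list and 1.13 in the WT list. The other five lay between 0.76 and 0.93 in the KO list and between 0.69 and 0.90 in the WT list, and all 7 had their strongest peak in the 3′ UTR. Psma2 overlaps the gene AW209491 on the same strand, so its values are uncertain. An antisense gene, 3110056K07Rik, had a KO peak overlapping those of Psma3 on the opposite strand. Psma5 and Psma6 also carried 5′ UTR peaks with lower KO values, but over unlike stretches. The KO peaks spanned 7943 bases (Psma5) and 8591 bases (Psma6), and each WT peak 175 bases. The Psma5 peak stood at 0.43 in the KO list and 0.80 in the WT list, and the Psma6 peak at 0.46 in the KO list and 0.75 in the WT list. With the mean over peaks, 3 of the 7 genes were higher in the KO list, beside 22.8% of all genes.

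By the strongest peak, the beta subunit genes leaned towards higher KO values. Of the 10 with a peak 9 were higher in the KO list, where 26.6% of all genes were higher. Cytosolic ribosomal protein genes (72.3% higher) and respiratory chain and ATP synthase genes (79.5% higher) leaned the same way. The beta subunit genes had a median value of 1.06 in the KO list and 0.90 in the WT list, with a median difference of 0.16. No test separates their lean from the other proteasome genes. The 3 constitutive catalytic genes were all slightly higher. Psmb7, the trypsin-like subunit, had 1.10 in the KO list and 0.97 in the WT list. Psmb6, the caspase-like subunit, had 0.99 in the KO list and 0.81 in the WT list. Psmb5, the chymotrypsin-like subunit and main target of the drug bortezomib, had 0.90 in the KO list and 0.87 in the WT list. The Psmb7 peak in the KO list extended over 23305 bases of genome, introns included, and lies opposite peaks of Nek6 in both lists.

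The other beta ring genes, which have no cutting site, were also higher in the KO list in 4 of 4 cases. Psmb1 had 1.49 in the KO list and 1.42 in the WT list at identical coordinates, 525 bases upstream of the annotated gene end. Psmb4 had 1.28 in the KO list and 1.05 in the WT list. Psmb3 had 0.84 in the KO list and 0.70 in the WT list, and Psmb2 had 0.90 in the KO list and 0.59 in the WT list. The Psmb2 peak covers the 3′ UTR at the same coordinates in both lists (chr4:126707720-126709710, plus strand), with an adjusted p of 4.06e-86 in the KO list and 8.9e-28 in the WT list. With the mean over peaks, 3 of these 4 and 3 of the 3 constitutive catalytic genes remained higher. Of the 3 inducible genes 1 was then higher. Over all genes 22.8% were higher by this measure.

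Within the immunoproteasome the 3 inducible genes did not move together. Psmb9 had 1.02 in the KO list and 1.67 in the WT list, a 2.03-fold enrichment against a 3.18-fold one. Psmb8 had 1.13 in the KO list and 0.87 in the WT list, and Psmb10 had 1.18 in the KO list and 0.92 in the WT list. The Psmb9 and Psmb8 genes lie close together on chromosome 17. For Psmb9 the strongest peak was at different ends of the gene in the 2 lists. Its 5′ UTR peak (chr17:34187330-34187729 in the KO list, minus strand) stood at 0.76 in the KO list and 1.67 in the WT list, the widest gap among the 5′ UTR peaks of the family. The adjusted p of that peak was 4.49e-09 in the KO list and 4.97e-47 in the WT list.

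At the other end of Psmb9 the order was opposite. Its 3′ UTR peak stood at 1.02 in the KO list and 0.77 in the WT list, and the KO list held a second 3′ UTR peak at 0.94 with no WT partner. The 5′ UTR peak of Psmb9 overlaps, on the opposite strand, a 5′ UTR peak of Tap1, the peptide transporter gene that shares its promoter region. That Tap1 peak stood at 0.82 in the KO list and 1.43 in the WT list. The libraries are described as strand-marked, and what part either transcript has in the other's peak was not tested. The difference of Psmb9 kept its direction with the mean over peaks (-0.31) and with short peaks (-0.73). The short-peak value again sets a KO 3′ UTR peak against the WT 5′ UTR peak. Psmb8, in turn, had its strongest peak in the 5′ UTR in both lists, with an adjusted p of 3.04e-28 in the KO list and 8.75e-10 in the WT list. The Psmb10 difference of 0.26 rests on a 3′ UTR peak of 1002 bases in the KO list and 290 bases in the WT list. With peaks of at most 1000 bases the KO peak is left out. The difference of -0.59 then sets a KO 5′ UTR peak (0.33) against the WT 3′ UTR peak (0.92). With the mean over peaks the Psmb10 difference was -0.17. A KO peak of the noncoding gene Gm16156 covers Psmb10 on the opposite strand.

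By the strongest peak, the genes of the regulatory particle were more evenly divided. Of the 17 ATPase and non-ATPase genes 7 were higher and 10 lower in the KO list, with a median difference of -0.058. Over all genes 26.6% were higher. With the mean over peaks, 2 of the 6 ATPase and 2 of the 11 non-ATPase genes were higher, beside 22.8% of all genes. By the strongest peak, 3 of the 6 ATPases were higher and 3 lower, with differences from -0.12 to 0.19. Psmc5 was the strongest, with 1.21 in the KO list and 1.33 in the WT list. Psmc4 was the ATPase gene with the largest difference, 0.84 in the KO list and 0.65 in the WT list. Psmc2 (0.997 in the KO list and 0.985 in the WT list) and Psmc3 (0.95 in the KO list and 0.89 in the WT list) hardly differed. Psmc3 had a 3′ UTR peak at identical coordinates in both lists, opposite peaks of the gene Slc39a13. Psmc1 had 0.84 in the KO list and 0.96 in the WT list. Psmc6 had 0.78 in the KO list and 0.89 in the WT list, the WT value coming from the 5′ UTR peak that the KO list lacks.

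Among the 11 non-ATPase genes the spread was wider. Psmd1 had its strongest peak in the 5′ UTR at identical coordinates in both lists (chr1:86064587-86064986, plus strand), with 1.50 in the KO list and 1.94 in the WT list. It carried 6 further KO peaks along its body that had no WT partner, between 0.43 and 0.76. Its WT list entry had a 3′ UTR peak at 0.49 that runs past the annotated gene end. The KO list had no 3′ UTR peak under the name Psmd1. A KO peak not listed under Psmd1 overlapped this WT peak on the same strand, so the 3′ UTR peak is not shown to be missing in KO. Psmd3 had 0.80 in the KO list and 1.06 in the WT list, again on a 5′ UTR peak at the gene start. Psmd14, the deubiquitinating subunit, had 1.08 in the KO list and 0.58 in the WT list, the largest positive difference of the family. The KO value is that of a 125-base peak at the gene start with an adjusted p of 0.00452. With peaks of an adjusted p of at most 0.001 the difference was 0.10, and its 3′ UTR peaks stood at 0.68 in the KO list and 0.58 in the WT list.

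For Psmd7, a scaffold partner of Psmd14, the strongest peaks lay at opposite ends of the gene. Its value was 1.06 in the KO list, from the 5′ UTR, and 1.23 in the WT list, from the 3′ UTR. The 3′ UTR peak itself has identical coordinates in both lists (chr8:107580381-107584241, minus strand) and stood at 0.72 in the KO list and 1.23 in the WT list, with an adjusted p listed as 0 in both. This difference of -0.50 was the largest among the pairs at identical coordinates. The 5′ UTR peak of Psmd7 stood at 1.06 in the KO list and 1.20 in the WT list. Psmd4, a ubiquitin receptor, had 1.32 in the KO list and 1.16 in the WT list, and its peaks at both ends were higher in the KO list. Psmd8 had 1.13 in the KO list and 1.23 in the WT list at identical coordinates. The other five, Psmd2, Psmd6, Psmd11, Psmd12 and Psmd13, had differences between -0.11 and 0.040. Psmd11, a scaffold subunit, had 1.06 in the KO list and 1.06 in the WT list.

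The chaperone genes of the regulatory particle differed among themselves. Psmd5 had 0.64 in the KO list and 1.10 in the WT list, on overlapping 3′ UTR peaks of 1100 bases in the KO list and 2693 bases in the WT list. Psmd9 had 0.81 in the KO list and 0.48 in the WT list, with 5 KO peaks near its 3′ end and 1 WT peak. Psmd10, also known as gankyrin, had 1.03 in the KO list and 1.08 in the WT list, on a 5′ UTR peak that begins at the gene start. So 1 of the 3 was higher in the KO list.

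The activators, which open the core without ubiquitin recognition, were higher in the KO list in 4 of 4 cases, all by less than 0.13. Over all genes 26.6% were higher. Psme4 had 3.25 in the KO list and 3.22 in the WT list, a 9.52-fold and a 9.30-fold enrichment. This peak begins at the annotated gene start (chr11:30771726-30772421 in the KO list, plus strand) and had an adjusted p of 6.7e-59 in the KO list and 8.17e-69 in the WT list. Of the 4887 KO 5′ UTR peaks of all genes 36 (0.737%) were at least as strong, against 101 of 4359 (2.32%) in the WT list. These shares come from lists of different length and scaling, so they show no change of Psme4 itself. At its 3′ end Psme4 had a peak with 1.06 in the KO list and 0.51 in the WT list, the largest positive difference among 3′ UTR peaks.

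Psme1 and Psme2 form the interferon-induced activator ring together. Psme1, whose 3′ UTR peak meets one of Emc9 on the opposite strand, had 0.91 in the KO list and 0.80 in the WT list, and Psme2 had 1.28 in the KO list and 1.18 in the WT list. Both also carried a coding exon peak near the gene start that was lower in the KO list. For Psme1 this was 0.42 in the KO list and 0.77 in the WT list, and for Psme2 0.88 in the KO list and 0.99 in the WT list. The Psme1 coding exon peak spanned 1231 bases in the KO list and 200 in the WT list. Psme3, the nuclear activator, had 1.11 in the KO list and 0.98 in the WT list, on a 5′ UTR peak at its gene start. With the mean over peaks 1 of the 4 activators was higher in the KO list, beside 22.8% of all genes. The 5′ UTR peak of Psme3 spans 1138 bases in the KO list and 973 in the WT list. With peaks of at most 1000 bases this KO peak is left out. The difference of -0.36 then sets a KO 3′ UTR peak (0.61) against the WT 5′ UTR peak (0.98).

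Psmf1, which encodes a protein that inhibits the core in vitro, was lower in the KO list throughout. Its strongest peak stood at 0.68 in the KO list and 1.11 in the WT list. The WT 3′ UTR peak of 1650 bases (adjusted p = 3.21e-55) was overlapped by 2 weaker KO peaks, at 0.50 and 0.57, and the strongest KO peak lay outside it with an adjusted p of 0.0312. The 5′ UTR peak over the motif site printed above stood at 0.44 in the KO list and 0.81 in the WT list. With the mean over peaks the difference was -0.41, and with adjusted p at most 0.001 it was -0.54.

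The core assembly chaperone genes Psmg1, Psmg2 and Psmg3 had nearly equal strongest peaks. Psmg3 had 1.50 in the KO list and 1.55 in the WT list, on a 5′ UTR peak. Its 3′ UTR peak stood at 0.83 in the KO list and 1.40 in the WT list, the largest negative difference among 3′ UTR peaks (-0.57). Psmg1 had 0.70 in the KO list and 0.69 in the WT list, and Psmg2 had 0.67 in the KO list and 0.68 in the WT list. Of the genes that match by name alone, Psmc3ip had 0.999 in the KO list and 0.82 in the WT list, and lies opposite the gene Mlx. Psme2b had 0.69 in the KO list and 0.57 in the WT list at identical coordinates. Reads of Psme2 and its copy Psme2b may have been shared between them, so the Psme2b values are uncertain.

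The proteasome peaks sat mainly in 3′ UTRs, as did the peaks of all genes. In the KO list 62 of 128 proteasome peaks (48.4%, 95% Wilson interval 40.0 to 57.0) were annotated to the 3′ UTR, and in the WT list 57 of 106 (53.8%, 44.3 to 63.0). Over all genes the shares were 51.4% in the KO list and 53.0% in the WT list. Coding exons held 24.2% (17.6 to 32.3) of the KO and 17.0% (11.02 to 25.3) of the WT proteasome peaks, beside 25.1% and 21.1% over all genes. The 5′ UTR held 18.8% (12.9 to 26.4) of the KO and 21.7% (14.9 to 30.5) of the WT proteasome peaks, beside 11.9% in the KO list and 11.9% in the WT list over all genes. These intervals cover the counting of peaks only, and peaks of 1 gene are not independent. Introns held 11 KO and 8 WT peaks.

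**Figure D3:**
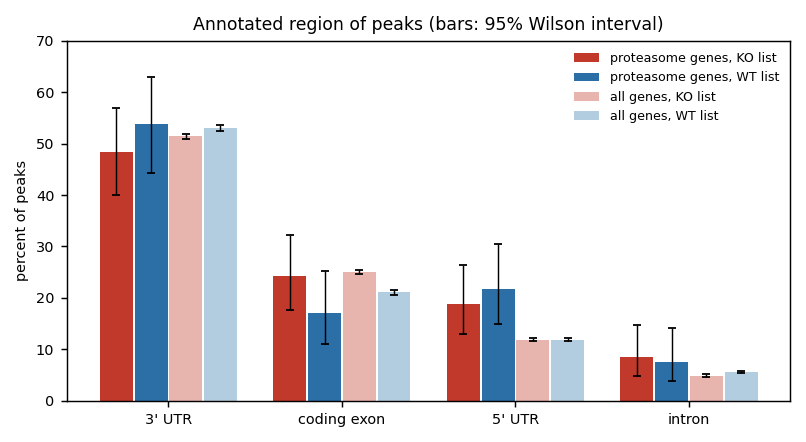
Percent of peaks annotated to the 3′ UTR, coding exons, the 5′ UTR and introns, for the proteasome genes in the KO list (128 peaks) and the WT list (106 peaks) and for all genes in each list. Error bars are 95% Wilson intervals for counting only. The 5′ UTR share of the proteasome genes, 18.8% in KO and 21.7% in WT, lies above the 11.9% of all genes in both lists.

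The strongest peak was in the 3′ UTR for 35 genes in the KO list and 37 in the WT list, and in the 5′ UTR for 11 genes in the KO list and 10 in the WT list. In the KO list the strongest peak of 1 gene, Psmd9, was in a coding exon. The region was the same in both lists for 41 genes, and the strongest peaks overlapped for 40. A 3′ UTR peak lying within 50 bases of the annotated gene end was present for 38 genes in the KO list and 37 in the WT list. A 5′ UTR peak within 50 bases of the gene start was present for 14 genes in the KO list and 15 in the WT list. Where a gene had peaks in both UTRs, the 5′ one was the stronger for 10 of 23 genes in the KO list and 10 of 23 in the WT list. No shares over all genes are given for the counts in this paragraph, so they mark no trait particular to proteasome genes. The antibody-based assay does not separate m6A from the cap-adjacent mark m6Am, which is also methylated at the N6 position.

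The strongest peaks of a gene were also compared within the same region. This comparison was added after the values had been seen. For the 46 genes with a 3′ UTR peak in both lists, the strongest such peak was higher in the KO list for 30 and lower for 16, with a median difference of 0.052. Over all genes with 3′ UTR peaks 28.6% were higher, and the median was -0.19. For the 19 genes with a 5′ UTR peak in both lists, 7 were higher and 12 lower in the KO list, with a median of -0.049. Over all genes with 5′ UTR peaks 26.8% were higher, and the median was -0.16. Coding exon peaks in both lists were available for 10 genes, of which 3 were higher, beside 29.4% over all genes. Whether the ends of the transcripts differ from each other was not tested.

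The lowest differences in the 3′ UTR were those of Psmg3 (-0.57), Psmd7 (-0.50), Psmd5 (-0.46) and Psmf1 (-0.44). The highest was that of Psme4 (0.54), followed by Psmb2 (0.31). In the 5′ UTR the lowest were those of Psmb9 (-0.91), Psmd1 (-0.45), Psma5 (-0.37) and Psmf1 (-0.36), and the highest that of Psmb8 (0.26). The Psma5 value compares peaks of unlike span, 7943 bases in the KO list and 175 in the WT list. Psmf1 was low in the KO list at both ends, while Psmb9 was low at its 5′ end and high at its 3′ end.

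**Figure D4:**
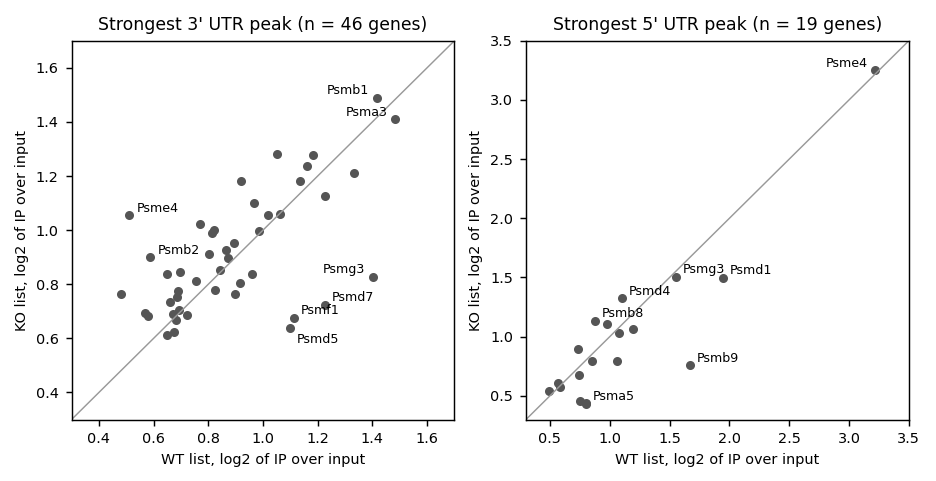
KO against WT log2 of IP over input for the strongest 3′ UTR peak (left, 46 genes) and the strongest 5′ UTR peak (right, 19 genes) of each proteasome gene with such a peak in both lists. Points below the diagonal are lower in the KO list. Psmg3, Psmd7, Psmd5 and Psmf1 lie well below it on the left, and Psmb9 and Psmd1 on the right.

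Most WT peaks of proteasome genes overlapped a KO peak, and the share depended on the rule of overlap. Of the WT proteasome peaks 96 of 106 (90.6%, 83.5 to 94.8) overlapped a KO peak by at least 1 base on the same strand, beside 77.2% over all WT peaks. Of the KO proteasome peaks 91 of 128 (71.1%, 62.7 to 78.2) overlapped a WT peak, beside 72.9% over all KO peaks. The 37 KO peaks without a partner comprised 16 in coding exons, 8 in 3′ UTRs, 7 in introns and 6 in 5′ UTRs. Their median was 0.51, below the 0.78 of the KO peaks with a partner. The strongest of them was the Psmd14 peak at the gene start (1.08). Of the 10 WT peaks without a partner 5 were in 5′ UTRs, those of Psma1, Psma3, Psmc6, Psmd13 and Psmg1. A reciprocal overlap of 50% was met by 61.3% of WT and 49.2% of KO proteasome peaks. Among peaks of at most 1000 bases, 63.5% of WT and 60.3% of KO proteasome peaks overlapped. No shares over all peaks are given for these stricter rules, so the excess over all WT peaks is shown for the 1-base rule only.

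At 13 places the proteasome peaks had identical coordinates in both lists, so that the same stretch is compared. The KO value was higher at 8 and lower at 5, with a median difference of 0.056. Over all 2916 such pairs 38.1% were higher in the KO list, and the median was -0.057. The lower ones were Psmd7 (-0.50), Psmd1 (-0.45), Psmd8 (-0.099), the 5′ UTR peak of Psmb4 (-0.065) and the 3′ UTR peak of Psme3 (-0.035). The higher ones ran from Psmd13 (0.040) over Psma1 (0.056), Psmc3 (0.060), Psmd2 (0.074), Psmb1 (0.074), Psme2b (0.12) and Psmb3 (0.15) to Psmb2 (0.31).

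**Figure D5:**
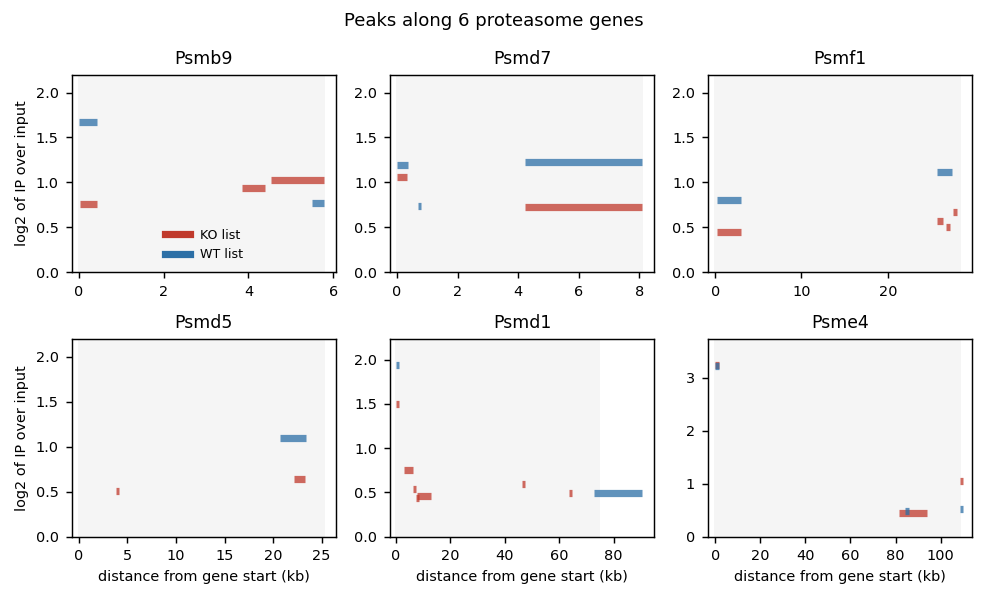
Peaks along Psmb9, Psmd7, Psmf1, Psmd5, Psmd1 and Psme4, each drawn from the annotated gene start (0 kb) in the direction of transcription against its log2 of IP over input, KO list in red and WT list in blue; very short peaks are widened to stay visible and grey shading marks the annotated gene. The 5′ peak of Psmb9 is lower and its 3′ peak higher in the KO list, the shared 3′ peak of Psmd7 is lower in the KO list, and the 5′ peak of Psme4 has nearly the same value in both.

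Genes that work with the proteasome but carry other names were set beside the members. A list of 29 names, with receptors, deubiquitinases, assembly factors, shuttle proteins and regulators, had 26 genes with a peak, all of them in both lists. Of these, 12 were higher and 14 lower in the KO list, with a median value of 1.16 in the KO list and 1.17 in the WT list and a median difference of -0.018, where 26.6% of all genes were higher. By the mean over peaks 8 were higher and 18 lower, with a median difference of -0.097, where 22.8% of all genes were higher. At 0.5 or more, by the strongest peak, 33.5% of all genes were lower and 2.91% higher. Of the 26 genes, 4 were lower and 1 was higher. The lower ones included the transcription factor gene Nfe2l1, known for driving proteasome gene expression when the proteasome is inhibited, with 2.31 in the KO list and 2.82 in the WT list. Its relative Nfe2l2, which drives the oxidative stress response, had 1.45 in the KO list and 2.28 in the WT list, but a difference of only -0.037 with the mean over peaks. Zfand2a, a stress-induced proteasome-associated factor, had 0.90 in the KO list and 1.75 in the WT list, and the shuttle gene Ubqln4 had 1.25 in the KO list and 1.83 in the WT list.

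The higher one was Ngly1, the glycanase that processes the Nfe2l1 protein, with 1.85 in the KO list and 0.51 in the WT list. The protease gene Ddi2, which cleaves the Nfe2l1 protein, had 1.22 in the KO list and 1.63 in the WT list. The ubiquitin receptor Adrm1 had 1.20 in the KO list and 1.52 in the WT list. The deubiquitinase Uchl5, which Adrm1 anchors, had 1.57 in the KO list and 2.02 in the WT list on intronic peaks. The assembly factor Pomp had 1.13 in the KO list and 1.001 in the WT list, and the small subunit Sem1 had 1.08 in the KO list and 1.02 in the WT list. These differences turned negative with the mean over peaks, to -0.25 for Pomp and -0.14 for Sem1.

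Genes of other large housekeeping complexes are given for scale. Of 83 cytosolic ribosomal protein genes with a peak in both lists 60 were higher in the KO list, with a median difference of 0.077. Of 88 nuclear genes of the respiratory chain and ATP synthase 70 were higher, with a median difference of 0.11. By the mean over peaks 41 of the 83 ribosomal genes were higher (median difference -0.016) and 61 of the 88 respiratory genes (0.078), beside 18 of the 47 proteasome genes (-0.064). These groups were not tested against each other. Levels of the transcripts in the input libraries were not analysed here, so these values say nothing on how much proteasome RNA either genotype held.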

How the data were processed

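The labels describe 12 libraries (4 groups of 3) from LPS-treated BV2 cells; per the labels' protocols polyadenylated RNA was fragmented, precipitated with an m6A antibody and made into strand-marked libraries. Without versions, the submitters' processing notes name edgeR, StringTie, HOMER, HISAT2, FastQC and fastp, and which of them called the peaks is not stated there. The genome build and any pooling of replicates are likewise not given in the sources used. Per the file headers, each deposited peak has a log2 enrichment in IP relative to input, its p-value with an adjusted p-value, and an annotated region and gene. Starts counted from 0 are printed 1-based.

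Members match by name, and full values go to members differing by at least 0.5, the 5 strongest of each list, those at identical coordinates and the immunoproteasome genes; other members were named after their values were seen. Members, lists and comparisons were chosen with earlier results of these data known. A gene's value is that of its strongest peak. Overlap used bedtools 2.31.1 (at least 1 base, same strand); other steps used SciPy 1.17.1, numpy 2.4.6 and pandas 2.3.3 under Python 3.11.15, and figures were drawn with matplotlib 3.10.9. The design holds no replicate values, so no test was made. Alternatives were adjusted p of at most 0.001, log2 of at least 1, spans of at most 1000 bases, 45 standard members, the mean over peaks, centring, identical coordinates, reciprocal overlap of 50% and strand ignored. On simulated lists, 400 of 400 changed or removed genes were recovered. The simulated list was a copy of the WT list with exact shifts and no noise, so this checks the code only.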

Additional observations from a re-analysis of the deposited data

How the results depend on the processing

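No paired analysis was possible because the peak lists have no per-library columns; for the same reason no replicate could be left out. Of 65 alternatives to the summary values, 40 stayed within their limits and 25 moved. With log2 of at least 1, 21 genes kept a peak in the KO list and 19 in the WT list, 5 in KO only and 3 in WT only. The medians were 1.18 in the KO list and 1.18 in the WT list. The median difference was -0.022 with 7 higher and 9 lower, where 17.7% of all genes were higher. The 3′ UTR shares were 60.9% in the KO list and 63.6% in the WT list, and 72.7% of WT peaks overlapped a KO peak. These values follow in part from the smaller number of peaks. With peaks of at most 1000 bases, 2 genes had a peak in KO only and 5 in WT only, and 60.3% of KO peaks and 63.5% of WT peaks overlapped. For neither setting is the share of all genes with a peak in KO only or WT only given, so these counts have no background beside them. The mean over peaks gave a median difference of -0.064 with 18 higher and 29 lower, and the cause was not tested. Centring on all genes gave a median of 0.28 with 5 lower, by construction. Identical coordinates left 8 higher and 5 lower. A reciprocal overlap of 50% was met by 49.2% of KO and 61.3% of WT peaks. For single genes, 162 of 193 alternatives kept the sign. No library depth or replicate spread is known.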
